A study of Homo sapiens with 5 samples.

Results

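The tubulin isotypes described here are 9 genes for the building blocks of microtubules, picked by symbol from the 36601 features of the count tables. There are 4 alpha-tubulins (TUBA1A, TUBA1B, TUBA1C and TUBA4A) and 5 beta-tubulins (TUBB, TUBB2A, TUBB2B, TUBB3 and TUBB6), and all 9 had UMIs (unique molecular identifiers, each counted as 1 captured RNA molecule) in all 5 libraries. TUBB4B, a further beta-tubulin, is given only beside them. RNA of single cells was counted in MDA-MB-468, a long-established line of human triple-negative breast cancer. PF0517515 inhibits acetyl-CoA carboxylase, going by the title of the study, and so the step that supplies malonyl-CoA to fatty acid synthesis. The groups, 1 library each, were untreated cells at 0 h, cells given the inhibitor for 6 h, cells given it for 72 h, untreated cells at 72 h, and cells labelled as recovering after 72 h of the inhibitor. All groups share the cell line, and the labels name neither the dose and vehicle nor how long recovery lasted. Each group being a single library, there is no replicate, so no test and no p-value is given, and each difference below compares libraries. Bracketed ranges give exact 95% intervals, which cover counting error only.

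Microtubules are hollow polymers of paired alpha- and beta-tubulin. They carry cargo, give the cell its shape and form the spindle that moves chromosomes in mitosis. Human cells make several isotypes of each family from separate genes, which are close to identical over most of their length and differ mainly in the acidic tail at the end of the protein. That tail carries added glutamates and, on most alpha-tubulins, a last tyrosine that enzymes remove and add back. Free tubulin lowers the stability of its own messages: TTC5 recognises the start of the new chain on the ribosome and, through SCAPER, brings the CCR4-NOT deadenylase to the RNA.

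The ends of the beta members' coding sequences are shown because they tell these isotypes apart. Each line gives the last 60 coding bases before the stop codon, 5′ to 3′, from GENCODE 29 transcripts, and capitals mark codons for glutamate.
TUBB: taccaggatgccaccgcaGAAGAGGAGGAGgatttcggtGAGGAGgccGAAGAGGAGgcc
TUBB2A: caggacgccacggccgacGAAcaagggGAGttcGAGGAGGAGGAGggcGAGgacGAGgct
TUBB3: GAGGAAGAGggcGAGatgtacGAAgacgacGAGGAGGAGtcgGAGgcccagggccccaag
TUBB6: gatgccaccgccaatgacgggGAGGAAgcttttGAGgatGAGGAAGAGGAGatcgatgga
Over these 60 bases TUBB2B has 1 difference from TUBB2A. The number of glutamate codons among the last 20 ran from 7 in TUBB6 to 9 in TUBB and TUBB3, with 8 in TUBB2A and TUBB2B. The first 12 coding bases, the stretch whose peptide is read in autoregulation, were atgcgtgagtgc in TUBA1A, TUBA1B and TUBA1C and atgcgtgaatgc in TUBA4A. In TUBB they were atgagggaaatc, and in TUBB3 and TUBB6 atgagggagatc.

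On GRCh38 the alpha members TUBA1B (chr12:49127782-49131397, minus strand), TUBA1A (chr12:49184796-49189324, minus) and TUBA1C (chr12:49188736-49274603, plus) lie near each other, and TUBA4A lies at chr2:219249711-219278170 on the minus strand. The beta members lie at chr6:30720201-30725426 (TUBB, plus), chr6:3153669-3157526 (TUBB2A, minus), chr6:3224261-3231730 (TUBB2B, minus), chr16:89921392-89938761 (TUBB3, plus) and chr18:12307669-12344320 (TUBB6, plus). Near-identical copies limit how well short reads can be assigned. Of the 511 windows of 90 bases in the last 600 bases of each transcript, another gene's transcripts held 506 for TUBB3, 313 for TUBB2A, 152 for TUBA1B, 94 for TUBA1A and 17 for TUBB2B. They held 0 for TUBA1C, TUBA4A, TUBB and TUBB6. The windows of TUBB3 were shared mostly with the readthrough gene AC092143.1, which is not among the features of the tables, and 18.8% were shared with genes that are. Levels of TUBB3, TUBB2A, TUBB2B, TUBA1A and TUBA1B are therefore uncertain by reads the counting could split or drop. All members but TUBB2A overlap a gene on the opposite strand (TUBA1A and TUBA1C overlap each other), and whether counting used the strand is not given in the sources used here.

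Kept cells numbered 1927 in the 72 h inhibitor library and 2920 to 3705 in the others, with 85376888 to 114350566 UMIs per library. The median UMIs per cell ran from 26540 in recovery to 41570 at 72 h of inhibitor, and the median share of mitochondrially encoded UMIs from 2.55% in recovery to 6.17% at 72 h untreated. All 10 epithelial markers were detected in each library, and 20 markers of blood, vessel, stromal and nerve cells together came to between 8.32 and 18.8 CPM (a gene's UMIs scaled to a fixed library total), with 2 to 6 of them at 0. Of 15454 barcodes, 29 occurred in more than 1 library.

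Among the alpha-tubulins TUBA1B, the main alpha isotype of dividing cells, had the highest level in all 5 libraries. It stood at 1073 CPM at 0 h untreated, 810.1 after 6 h of inhibitor, 276 at 72 h of inhibitor, 793 at 72 h untreated and 605 in recovery. The 72 h inhibitor library was the lowest, and recovery lay between it and the untreated libraries. TUBA1C, a close relative that is also broadly made, was at 377 CPM at 0 h untreated, 339.8 after 6 h of inhibitor, 132 at 72 h of inhibitor, 273 at 72 h untreated and 256 in recovery. Its lowest value was again at 72 h of inhibitor.

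TUBA1A, the alpha isotype best known from developing neurons, was scarce: 7.05 CPM at 0 h untreated, 7.08 after 6 h of inhibitor, 3.08 at 72 h of inhibitor, 11.1 at 72 h untreated and 8.92 in recovery. The counting intervals of its 0 h and 6 h values overlapped. TUBA4A, the remaining alpha isotype, followed another order. It was at 13.5 CPM at 0 h untreated, 13.2 after 6 h of inhibitor, 18.4 at 72 h of inhibitor, 21.3 at 72 h untreated and 65.6 (64.0 to 67.1) in recovery. Recovery was the highest by far, and the 0 h and 6 h intervals overlapped.

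TUBB, the general beta isotype, was the most abundant member in every library. It measured 1757 CPM at 0 h untreated, 1537 after 6 h of inhibitor, 1004 at 72 h of inhibitor, 1521 at 72 h untreated and 1984 in recovery. It was thus lowest at 72 h of inhibitor and highest in recovery. TUBB6, a divergent beta isotype found in many non-neural cells, came next among the beta members, at 92.3 CPM at 0 h untreated, 109 after 6 h of inhibitor, 38.6 at 72 h of inhibitor, 89.2 at 72 h untreated and 54.6 in recovery. Here recovery stayed below every library other than the one at 72 h of inhibitor, and the intervals of the untreated libraries overlapped.

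TUBB3, the beta isotype used as a neuronal marker and also made in many cancers, was at 32.1 CPM at 0 h untreated, 29.5 after 6 h of inhibitor, 12.6 at 72 h of inhibitor, 24.0 at 72 h untreated and 33.3 in recovery. TUBB2A was at 26.9 CPM at 0 h untreated, 32.1 after 6 h of inhibitor, 8.59 at 72 h of inhibitor, 27.5 at 72 h untreated and 35.1 in recovery. Both were lowest at 72 h of inhibitor. The 0 h and recovery intervals overlapped for TUBB3, as did the untreated ones for TUBB2A. TUBB2B, a near copy of TUBB2A known from neurons, was at 0.472 CPM (54 UMIs) at 0 h untreated, 1.59 (170 UMIs) after 6 h of inhibitor, 5.62 (480 UMIs) at 72 h of inhibitor, 4.17 (392 UMIs) at 72 h untreated and 4.97 (508 UMIs) in recovery. Of the 9 members it alone had its lowest value at 0 h and its highest at 72 h of inhibitor, in counts that were small throughout. Its intervals at 72 h of inhibitor and in recovery overlapped.

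**Figure D1:**
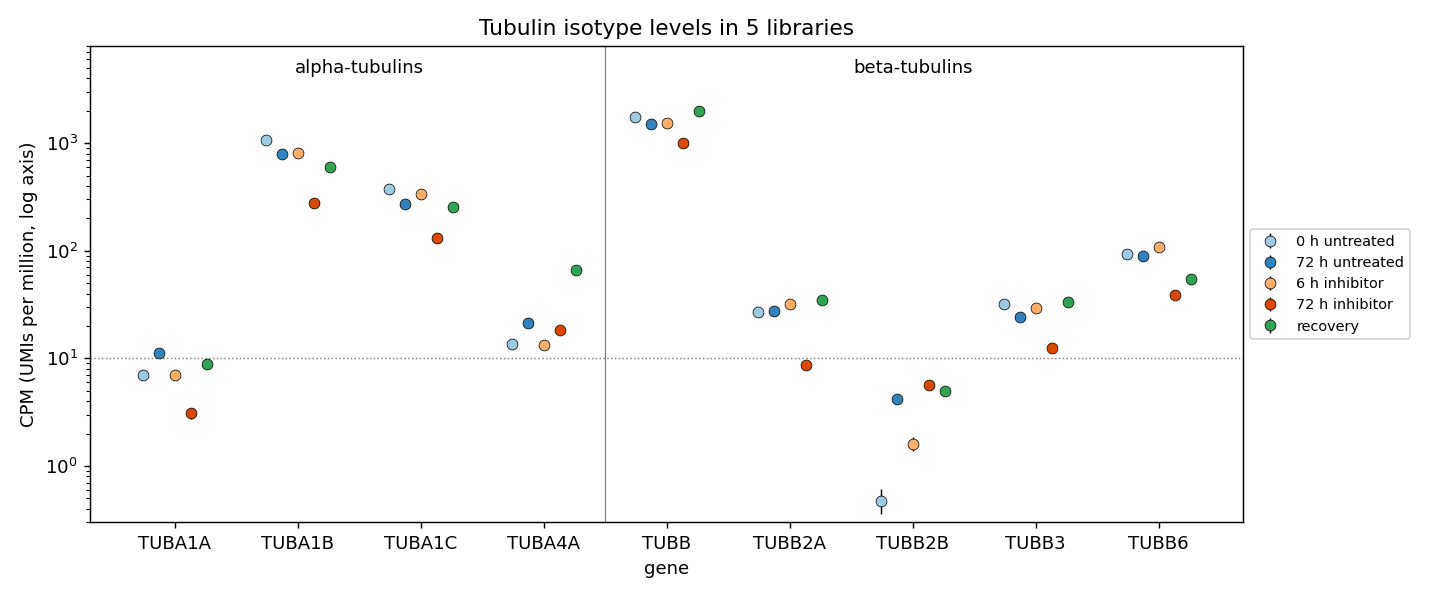
CPM of the 9 tubulin isotypes (log axis) in the 5 libraries, 1 point per library, with bars for exact 95% counting intervals (mostly smaller than the points) and a dotted line at 10 CPM. The 72 h inhibitor library is the lowest for 7 genes; TUBA4A stands out in recovery at 65.6 CPM and TUBB2B is at 0.472 CPM at 0 h untreated.

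The first comparison set 72 h of inhibitor beside untreated cells of the same time. It used the 9346 genes of at least 10 CPM in either library, of which 8 were members, since TUBB2B lay below that minimum. All 8 were lower with the inhibitor (TUBA4A not under median-of-ratios or trimmed-mean scaling, nor against 0 h untreated cells), 7 of them by 1.5-fold or more, where 20% of all genes were lower and 7.38% higher by that much. The median log2 ratio was -1.13 over the members and -0.14 over all genes. TUBA1A was 3.61-fold lower (3.15 to 4.15), TUBB2A 3.20-fold (2.95 to 3.48), TUBA1B 2.87-fold (2.83 to 2.91) and TUBB6 2.31-fold (2.22 to 2.40). TUBA1C was 2.07-fold lower (2.02 to 2.12) and TUBB3 1.91-fold (1.78 to 2.06). TUBB, at 1.51-fold lower (1.502 to 1.528), only just reached the threshold.

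TUBA4A was 1.16-fold lower and TUBB2B 1.35-fold higher in this pair. Scaling by median-of-ratios size factors, which centre on the typical gene, moved all log2 ratios up by 0.23. The size of TUBB's difference was then 1.29-fold, short of the threshold, TUBA4A turned to 1.02-fold higher, and the other 6 stayed at least 1.5-fold lower, from 1.63-fold for TUBB3 to 3.07-fold for TUBA1A. Of all genes, 15.9% were then 1.5-fold higher and 11.6% lower. Against the library of 0 h untreated cells, the log2 ratio of TUBA4A went from -0.21 to 0.45, that of TUBA1A from -1.85 to -1.19 and that of TUBB2B from 0.43 to 3.57. Cells of the inhibitor library also held more UMIs each. Per cell, TUBB came to 44.5 UMIs on average with the inhibitor and 48.9 without, whereas TUBA1B came to 12.2 and 25.5.

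The early library asked what 6 h of the inhibitor did, set beside 0 h untreated cells. No untreated library was taken at 6 h, so time and inhibitor cannot be told apart. Of the 7 members measured among 9075 genes, 0 were 1.5-fold higher and 0 were 1.5-fold lower, where 11% and 0.882% of all genes were. TUBA1B was 1.32-fold lower (1.31 to 1.34), and 2.91% of genes had a lower ratio. TUBB was 1.14-fold lower, TUBA1C 1.11-fold and TUBB3 1.09-fold, while TUBB2A was 1.19-fold and TUBB6 1.18-fold higher. TUBA4A was 1.02-fold lower with an interval that included no difference. TUBB2B, below the minimum, was 3.38-fold higher (2.47 to 4.67), and TUBA1A was 1.00-fold higher (0.908 to 1.11), which turned to 1.12-fold lower under median-of-ratios scaling. That scaling lowered the log2 ratios of this pair by 0.17, and 5.47% of all genes were then 1.5-fold higher and 2.68% lower. Several directions at 6 h also depended on the untreated library. With 72 h untreated cells in place of those at 0 h, the log2 ratio of TUBA1B went from -0.41 to 0.03, TUBA1C from -0.15 to 0.32, TUBB from -0.19 to 0.01 and TUBB3 from -0.12 to 0.29. Likewise TUBA1A went from 0.01 to -0.65, TUBA4A from -0.03 to -0.68 and TUBB2B from 1.75 to -1.39. TUBB2A and TUBB6 alone were higher at 6 h than in both untreated libraries. Among thinned cells low in both cell cycle lists, which are defined further on, TUBB2A was 1.30-fold lower than at 0 h untreated (1.05 to 1.62). TUBB6 was 1.03-fold lower there, with an interval that included no difference.

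Recovery cells were next set beside cells still under the inhibitor at 72 h, which asked whether levels differed after its removal. All 7 members measured among 8943 genes were higher in recovery, 6 of them by 1.5-fold or more, where 14.2% of all genes were that much higher and 14.3% that much lower. The median log2 ratio was 1.13 over the members and -0.01 over all genes. TUBB2A was 4.09-fold higher (3.78 to 4.44), TUBA4A 3.57-fold (3.38 to 3.77), TUBB3 2.65-fold (2.47 to 2.84) and TUBA1B 2.19-fold (2.16 to 2.22). TUBB was 1.98-fold higher (1.96 to 1.99), TUBA1C 1.94-fold (1.90 to 1.98) and TUBB6 1.41-fold (1.35 to 1.48). TUBA1A was 2.89-fold higher and TUBB2B 1.13-fold lower (0.996 to 1.28, which includes no difference), both under the minimum in the pair. This comparison and the first share the 72 h inhibitor library.

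Set beside 72 h untreated cells, recovery cells differed by isotype. Among 9405 genes 8 members were measured, and 1 of them, TUBA4A, was 1.5-fold higher, at 3.08-fold (2.93 to 3.24), where 11.7% of genes were. At the other end TUBB6 was 1.63-fold lower (1.58 to 1.69), 1 of 8 members where 24.9% of genes were at least 1.5-fold lower. TUBB3 was 1.38-fold higher, TUBB 1.30-fold, TUBB2A 1.28-fold and TUBB2B, below the minimum, 1.19-fold, whereas TUBA1B was 1.31-fold lower, TUBA1A 1.25-fold and TUBA1C 1.07-fold. Median-of-ratios scaling raised the log2 ratios by 0.26. TUBB, TUBB2A and TUBB3 then passed 1.5-fold higher beside TUBA4A, TUBB6 was 1.36-fold lower, and TUBA1C turned to 1.12-fold higher, where 21.2% of all genes were 1.5-fold higher and 14.7% lower. Against 0 h untreated cells the log2 ratio of TUBA4A was 2.28 in place of 1.63, that of TUBB2B 3.40 in place of 0.25, and that of TUBA1A turned from -0.32 to 0.34.

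The untreated libraries showed how far apart members lay without the inhibitor. Among 9303 genes, 2 of 8 members, TUBA1A at 1.58-fold (1.44 to 1.73) and TUBA4A at 1.58-fold (1.47 to 1.69), were at least 1.5-fold higher at 72 h than at 0 h, where 15.9% of genes were. None was 1.5-fold lower, where 6.2% of genes were. TUBA1C was 1.38-fold lower at 72 h, TUBA1B 1.35-fold, TUBB3 1.33-fold, TUBB 1.16-fold and TUBB6 1.04-fold. Under median-of-ratios scaling, which lowered the log2 ratios by 0.26, TUBA1A and TUBA4A fell short of the threshold at 1.32-fold and 1.31-fold higher, and TUBA1C, TUBA1B and TUBB3 passed it at 1.65-fold, 1.62-fold and 1.60-fold lower. TUBB2A went from 1.02-fold higher to 1.17-fold lower under it, and 8.05% of all genes were 1.5-fold higher and 16.8% lower. TUBB2B was 8.84-fold higher at 72 h untreated than at 0 h (6.64 to 11.98), more than the distance between the 72 h libraries with and without inhibitor.

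**Figure D2:**
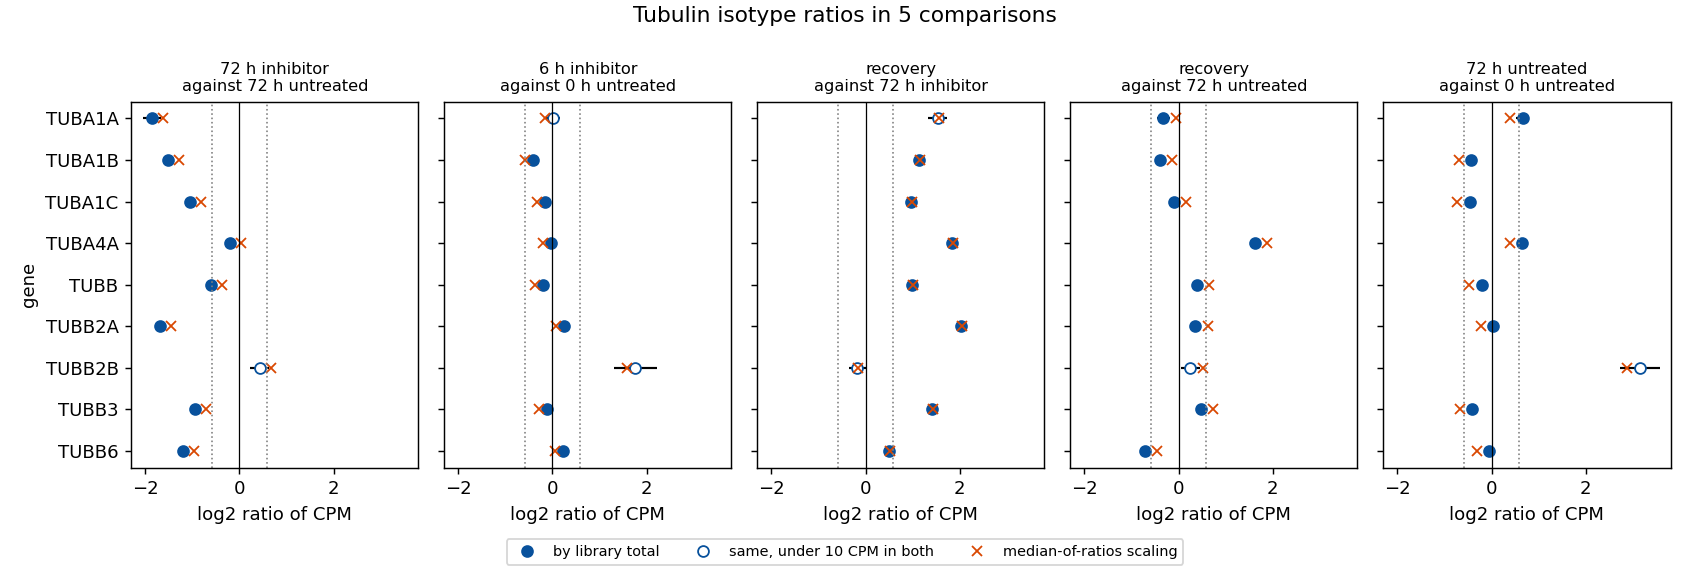
Log2 ratio of CPM for each tubulin isotype in 5 comparisons (first library over second), with bars for exact 95% counting intervals, open points for genes under 10 CPM in both libraries, crosses for median-of-ratios scaling and dotted lines at 1.5-fold. At 72 h of inhibitor 7 genes lie left of the threshold, in recovery against the inhibitor 6 filled points lie right of it, and TUBA4A is the point far to the right in recovery against untreated cells.

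The balance between the families does not depend on how libraries are scaled, since it is taken within a library. Alpha members gave 0.770 UMIs for each beta member UMI at 0 h untreated, 0.685 after 6 h of inhibitor, 0.402 (0.397 to 0.407) at 72 h of inhibitor, 0.659 (0.654 to 0.664) at 72 h untreated and 0.443 (0.440 to 0.446) in recovery. It was low in the 72 h inhibitor and recovery libraries and higher in the other 3. The ratio of TUBA1B to TUBB alone followed the same order, at 0.611, 0.527, 0.275, 0.521 and 0.305. With TUBB4B counted as a beta member, the family ratio was 0.616, 0.562, 0.363, 0.541 and 0.395. Thus recovery had TUBB above untreated cells, TUBA1B below them, and a family ratio close to that under the inhibitor. These are ratios of RNA counts caught at the 3' end and not of protein.

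Within the alpha family TUBA1B made up 73.0% of UMIs at 0 h untreated, 69.2% after 6 h of inhibitor, 64.3% at 72 h of inhibitor, 72.2% at 72 h untreated and 64.7% in recovery. The share of TUBA4A was 0.917%, 1.13%, 4.28% (4.07 to 4.49), 1.94% (1.85 to 2.02) and 7.01% (6.85 to 7.17) in the same order. TUBA4A thus took a larger share at 72 h of inhibitor than in untreated cells although its CPM was no higher there than at 72 h untreated, because TUBA1B and TUBA1C were lower. TUBA1C held 24.9% to 30.7% across the libraries and TUBA1A 0.479% to 1.013%.

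Among the beta members TUBB held between 89.95% (6 h of inhibitor) and 93.9% (recovery and 72 h of inhibitor) of UMIs. TUBB6 made up 4.84% at 0 h untreated, 6.35% after 6 h of inhibitor, 3.61% at 72 h of inhibitor, 5.35% at 72 h untreated and 2.59% in recovery, its lowest share. TUBB2B went from 0.0247% at 0 h untreated to 0.526% at 72 h of inhibitor, with 0.251% at 72 h untreated. TUBB3 stayed between 1.17% and 1.72%, and TUBB2A between 0.803% and 1.88%. TUBB4B, at 477, 372, 112, 363 and 256 CPM in the library order used above, was 3.22-fold lower at 72 h of inhibitor than in untreated cells of that time (3.15 to 3.30). With TUBB4B added to the beta total, TUBB held 73.64% at 0 h untreated, 73.86% after 6 h of inhibitor and 74.99% at 72 h untreated. On that total TUBB held more at 72 h of inhibitor, 84.96%, and in recovery, 83.8%. TUBB4B itself made up 19.99%, 17.89%, 9.508%, 17.87% and 10.8% of it in the same library order.

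**Figure D3:**
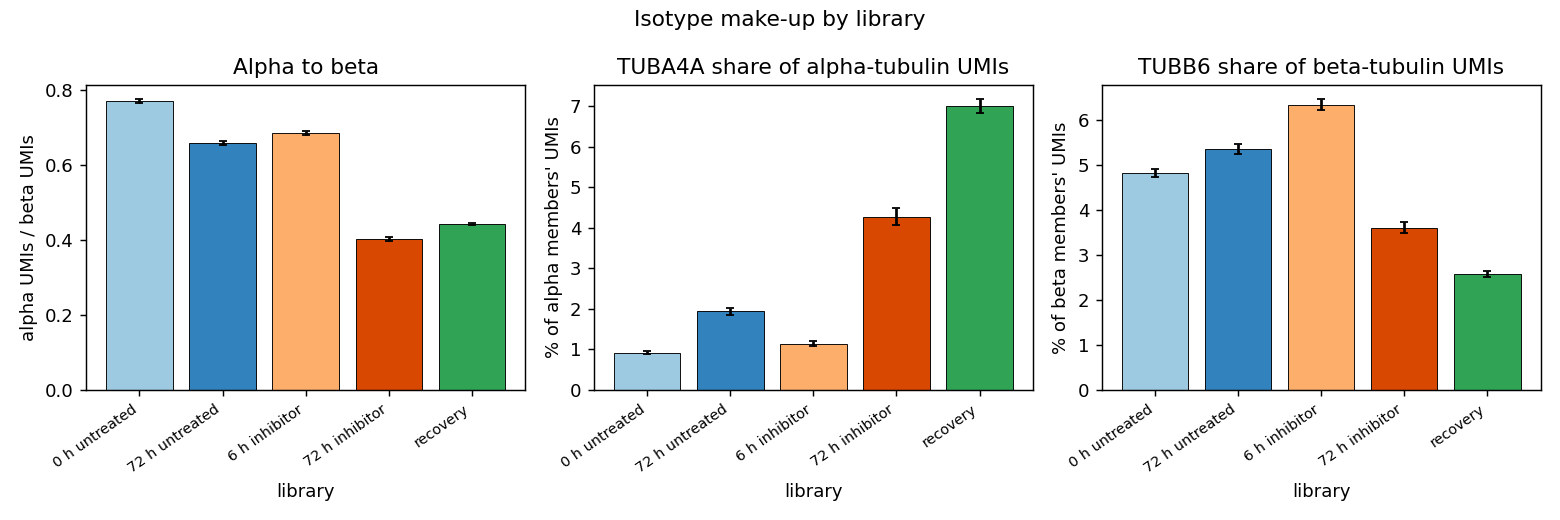
Isotype make-up in the 5 libraries: UMIs of the 4 alpha members over those of the 5 beta members, the percent of alpha UMIs from TUBA4A, and the percent of beta UMIs from TUBB6, with exact 95% counting intervals. The alpha to beta ratio is 0.402 at 72 h of inhibitor and 0.443 in recovery against 0.659 to 0.770 elsewhere, and TUBA4A reaches 7.01% in recovery.

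Because tubulin feeds the spindle, the members were also read in ranges of the cell cycle, cut from summed UMIs of an S phase list and a G2/M list after each cell was thinned to 5000 UMIs. Cells at or under the 0 h untreated medians of both lists (15 S phase and 17 G2/M UMIs) are called low in both, and cells above the 90th percentile of G2/M UMIs at 0 h untreated (52) are called G2/M-high. These are ranges of a score and not cell types, and 7.44% to 18.7% of a library's cells lay within 1 UMI of either low limit and 1.18% to 3.06% within 2 UMIs of the high one. Low cells made up 28.5% at 0 h untreated, 30.2% after 6 h of inhibitor, 72.7% at 72 h of inhibitor, 46.8% at 72 h untreated and 39.4% in recovery. G2/M-high cells made up 9.81%, 9.85%, 4.76%, 11.5% and 16.2%, only 89 cells at 72 h of inhibitor.

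The difference at 72 h was also present among low cells alone. There TUBA1B stood at 168 CPM with the inhibitor and 666 without, 3.96-fold lower (3.71 to 4.23), TUBB2A was 4.48-fold lower (3.22 to 6.37), TUBA1A 5.33-fold (3.15 to 9.55) and TUBB6 2.61-fold (2.22 to 3.09). TUBB3 was 2.02-fold lower, TUBA1C 1.71-fold and TUBB 1.67-fold (1.61 to 1.72), and TUBA4A was 1.04-fold lower with an interval that included no difference. By UMI total the same 7 members passed 1.5-fold lower among low cells as over all cells. The share of all genes past it among low cells is not given here, so this count has none beside it. Median-of-ratios values are not given for low cells either, and over all cells TUBB was 1.29-fold lower under that scaling. Among G2/M-high cells TUBA1C was 2.47-fold lower (2.02 to 3.04), TUBA1B 1.83-fold (1.60 to 2.10) and TUBB 1.23-fold (1.13 to 1.34), and the intervals of the other 6 included no difference.

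Within a library, TUBA1C and TUBB were higher in G2/M-high than in low cells in all 5. TUBA1C was 2.28-fold, 3.03-fold, 2.48-fold, 3.58-fold and 3.35-fold higher in 0 h untreated, 6 h of inhibitor, 72 h of inhibitor, 72 h untreated and recovery, and TUBB between 1.47-fold and 1.98-fold. TUBA1B differed little between the ranges at 0 h untreated, at 1.12-fold (1.06 to 1.17), and more at 72 h of inhibitor, at 3.37-fold (2.93 to 3.86). TUBB3 was lower in G2/M-high cells of the untreated libraries, at 0.554 and 0.640 of the level in low cells at 0 h and 72 h, with intervals that included no difference in the other 3. TUBB6 was higher in G2/M-high cells of every library, from 1.39-fold to 3.08-fold.

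TUBA4A did not differ between the ranges beyond counting error in any library. Its recovery level was 54.5 CPM in low cells and 56.2 in G2/M-high cells, 3.40-fold (2.74 to 4.24) and 4.17-fold (1.87 to 11.5) above those at 72 h of inhibitor. Its higher level in recovery was thus measured in both ranges.

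**Figure D4:**
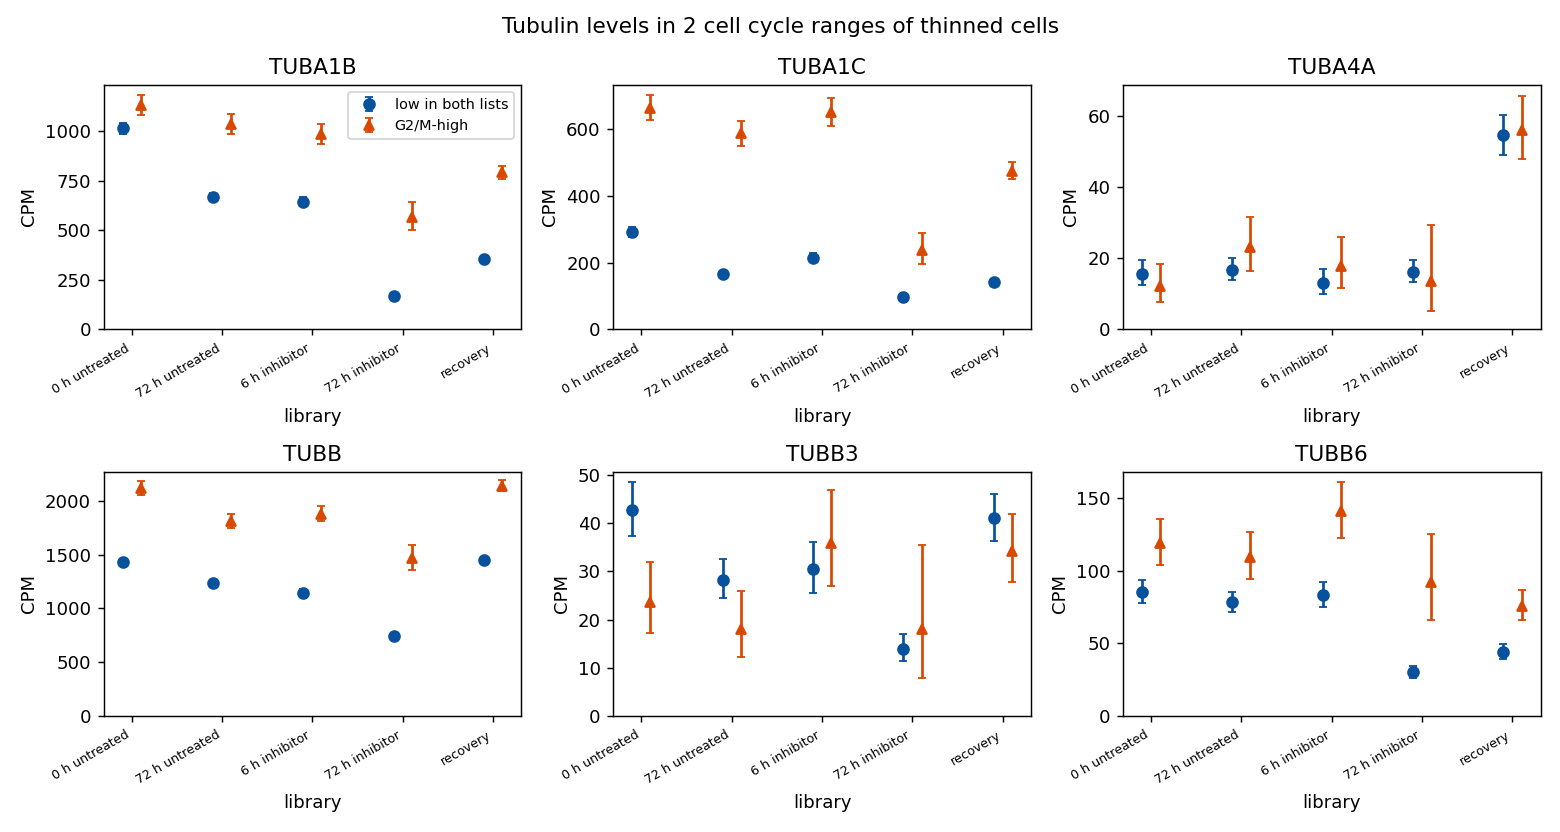
CPM of 6 tubulin isotypes in thinned cells that were low in both cell cycle lists (circles) and in G2/M-high cells (triangles) of each library, with exact 95% counting intervals. TUBA1B, TUBA1C and TUBB are lowest at 72 h of inhibitor in both ranges, and TUBA4A in recovery is at 54.5 and 56.2 CPM.

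How many cells showed a member was read at the same 5000 UMIs per cell. TUBA1B was seen in 97.4% of cells at 0 h untreated, 95.5% after 6 h of inhibitor, 58.7% at 72 h of inhibitor, 93.6% at 72 h untreated and 86.5% in recovery, and in 99.9%, 99.8%, 92.0%, 98.9% and 97.1% without thinning. Its median count in a thinned cell was 5, 4, 1, 3 and 2. TUBB was seen in 94.9% to 99.6% of thinned cells, with a median of 8, 7, 4, 7 and 9. TUBA4A was seen in 6.05%, 6.08%, 7.60%, 9.12% and 25.0% of thinned cells, and in 29.5%, 32.0%, 40.5%, 41.5% and 71.5% without thinning. Its variance over cells in recovery was 1.15 times its mean, where counting alone gives 1. These libraries hold no cell type that should lack the members, so the share that free RNA in the droplets gives was not measured.

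Genes that act on tubulin were taken from lists chosen by function. At 72 h of inhibitor against 72 h untreated, 19 of 22 folding genes (prefoldin, the CCT chaperonin and the tubulin cofactors) were measured, and 0 were 1.5-fold higher and 1, the cofactor gene TBCD, lower, with a median log2 ratio of -0.09. Under median-of-ratios scaling 2 were higher, the prefoldin genes PFDN2 and PFDN4, and 0 lower. The autoregulation list had 0 of 13 higher and 1 lower, SCAPER at 1.52-fold (1.44 to 1.60), with a median of -0.00052, and 0 passed in either direction under median-of-ratios scaling. TTC5, which recognises the nascent chains, was 1.34-fold lower in that pair. Of 17 stabilisers and plus-end proteins 2 were higher, MAP1B at 1.83-fold and MAP1S at 1.52-fold, and 0 lower, with a median of -0.02, and median-of-ratios scaling added CAMSAP1. Shares over all genes in this pair are 7.38% higher and 20% lower, or 15.9% and 11.6% under median-of-ratios scaling. The medians of these 3 lists are to be read beside the all-gene median of -0.14 and the members' median of -1.13. Median-of-ratios scaling puts the all-gene median at 0.10 and shifts every list by the same amount.

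The list of destabilisers and severing enzymes had 6 of 9 measured genes at least 1.5-fold lower and 0 higher, with a median of -0.79, where 20% of all genes were that much lower and 7.38% higher. STMN1, stathmin, which binds free tubulin dimers, was 2.86-fold lower (2.82 to 2.90), KIF18A, a kinesin that limits spindle microtubule length, 2.10-fold, and KIF2C, a kinesin that takes microtubule ends apart, 1.94-fold. KIF18B at 2.08-fold and FIGN at 1.72-fold were also among them, and under median-of-ratios scaling 4 stayed past the threshold, namely STMN1, KIF18A, KIF18B and KIF2C, where 11.6% of all genes did. The S phase list had 26 of 40 genes 1.5-fold lower and the G2/M list 41 of 53, with medians of -0.73 and -0.94 (17 and 31 under median-of-ratios scaling), so cell cycle genes and the members were low in the same library. KIF2C is on both the destabiliser and the G2/M list, so these counts overlap. The gamma-tubulin ring complex, which nucleates microtubules, had 2 of 11 lower, TUBG1 at 2.08-fold and TUBGCP5 at 1.90-fold, a share near that of all genes.

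In recovery against 72 h of inhibitor 42 of 53 G2/M genes and 12 of 37 S phase genes were 1.5-fold higher, with medians of 1.15 and 0.33, where 14.2% of all genes were higher and 14.3% lower by that much. Of the destabilisers 4 of 7 were higher, among them KIF2C, also on the G2/M list, at 3.13-fold and STMN1 at 2.10-fold. None of 19 folding genes passed 1.5-fold in either direction there. The autoregulation list had 0 of 13 higher and 2 lower, TTC5 at 1.64-fold (1.48 to 1.82) and CNOT10 at 1.62-fold, a share near that of all genes. Against 72 h untreated cells it had 1 higher, CNOT8, and 3 lower, CNOT10, SCAPER and TTC5, the last at 2.20-fold (2.005 to 2.422), where 24.9% of all genes were lower. Under median-of-ratios scaling TTC5 was the one that stayed lower. Among enzymes that modify tubulin, 3 of 13 were higher (ATAT1, SIRT2 and TTLL5) and 4 lower (TTL, TTLL12, TTLL3 and TTLL4) against 72 h of inhibitor. TTL, which puts the last tyrosine back on alpha-tubulin, was 1.61-fold lower there (1.51 to 1.71), and 1.57-fold lower than at 72 h untreated. Against 72 h untreated cells, where 24.9% of all genes were that much lower, TTL fell short of 1.5-fold under median-of-ratios scaling. SIRT2, a deacetylase of alpha-tubulin, was 1.84-fold higher than at 72 h of inhibitor (1.75 to 1.94).

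At 6 h of inhibitor against 0 h untreated, 6 of 16 stabilisers and plus-end proteins were 1.5-fold higher (CLASP1, CLASP2, CLIP1, MAP1B, MAP2 and MAP4) and 0 lower, where 11% of all genes were higher and 0.882% lower, with a median log2 ratio of 0.36 beside 0.10 over all genes. Under median-of-ratios scaling that median was 0.19, and 3 of the 16 passed (CLIP1, MAP1B and MAP2), where 5.47% of all genes did. None of 20 folding, 13 autoregulation or 11 destabiliser genes passed in either direction at 6 h. Between the untreated libraries, 23 of 42 S phase genes were 1.5-fold lower at 72 h than at 0 h and 0 higher. Of all genes 6.2% were that much lower and 15.9% higher. The G2/M list had 0 of 53 lower and 4 higher. Under median-of-ratios scaling 35 S phase, 8 G2/M and 8 of 19 folding genes were 1.5-fold lower and 0 higher. Of all genes 16.8% were then lower and 8.05% higher.

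Across the 5 libraries each member was matched with the 3 other genes whose log2 CPM, centred over the libraries, differed least from its own, among 7549 genes of at least 20 CPM in some library. TUBA1B was nearest to STMN1 (root mean square difference 0.06), TUBB4B (0.07) and NUDT1 (0.09). TUBA1C was nearest to CFL1, KIF11 and SFN (0.05 to 0.07), and TUBB3 to CCNA2, KIFC1 and UBE2S (0.06 to 0.10). TUBA4A was nearest to FAM126B (0.04), DNAJB1 (0.15) and BORA (0.16). DNAJB1, a co-chaperone of the heat shock response, stood at 114 CPM at 0 h untreated, 115 after 6 h of inhibitor, 169 at 72 h of inhibitor, 149 at 72 h untreated and 609 in recovery, so it too was high in recovery. TUBB was nearest to TACC3, HMCES and STARD7 (0.07 to 0.09), TUBB6 to SSH2, DLEU2 and COMMD1 (0.07 to 0.10), TUBB2A to NUSAP1, MXD3 and TK1 (0.19 to 0.21), and TUBA1A to C3, DLGAP5 and CCNB1 (0.14 to 0.16). TUBB2B had no near match, its nearest gene, ZNF419, being 0.41 away. With 5 libraries such nearness is a description of these libraries.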

How the data were processed

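Libraries of polyadenylated RNA were made with a 10x Genomics 3' kit, per the labels' protocols. The deposited values are UMI counts per gene and barcode, and the authors made them with Cell Ranger 7.1.0 on GRCh38, per the submitters' processing notes. Which gene annotation was used, and if introns counted, is not given in the sources used here.

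Cells with at least 1000 genes and at most 20% mitochondrial UMIs were kept, and doublets were not removed. Counts of kept cells were added up by library and expressed as CPM. Genes of at least 10 CPM in either library entered a comparison, and a member was called past 1.5-fold. Intervals are exact 95% (Poisson for sums, Clopper-Pearson for shares and ratios). Total counts ran from 85376888 to 114350566 per library. For values per cell, cells were thinned at random to 5000 UMIs, leaving out 5 to 75 shallower cells per library. All 9 members are named in every comparison, list genes past 1.5-fold were eligible for naming and a selection is printed, and the 3 nearest genes of each member follow a fixed measure. Positions and transcripts come from GENCODE 29, and some items are not reported here. The members and lists were chosen with earlier results of these data known. The ratio step was tested on simulated data. Thinning was run on real cells, where only the total left in each cell was checked.

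Alternatives were other cell filters, scalings (median-of-ratios, and edgeR 4.0.16's trimmed mean of M values), expression minimums, weights, thinning, fold thresholds and untreated libraries. Software was R 4.3.3 and Python 3.11.15 with pandas 2.3.3, matplotlib 3.10.9, numpy 2.4.6 and scipy 1.17.1.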

Additional observations from a re-analysis of the deposited data

Results flagged for a closer look

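TUBB2A and TUBB6 were above their untreated library at 6 h of inhibitor and below it at 72 h. The log2 ratio of TUBB2A was 0.25 at 6 h and -1.68 at 72 h, a difference of -1.93. That of TUBB6 was 0.23 at 6 h and -1.21 at 72 h, a difference of -1.44. Under median-of-ratios scaling the 6 h log2 ratios were only 0.08 for TUBB2A and 0.06 for TUBB6. With 1 library per group the difference between the times was not tested, and the untreated library set beside each time was another one. Among thinned cells low in both cell cycle lists TUBB2A was 1.30-fold lower at 6 h than at 0 h untreated (1.05 to 1.62). TUBB6 was 1.03-fold lower there, with an interval that included no difference (0.895 to 1.18). At 72 h of inhibitor such cells had less of both than untreated ones, by 4.48-fold for TUBB2A and 2.61-fold for TUBB6.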

How the results depend on the processing

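In the first comparison, a minimum of 50 CPM left only TUBA1B, TUBA1C, TUBB and TUBB6. All 4 of these were 1.5-fold lower, in place of 7 of 8 members. At 6 h, 1 was higher without a minimum (TUBB2B), 1 lower among cells that were low in both cycle lists, and 2 lower with the 72 h untreated library in place of 0 h, where the log2 ratio of TUBB2B turned from 1.75 to -1.39 and those of TUBA1A, TUBA1B, TUBA1C, TUBB and TUBB3 changed sign too. For recovery against 72 h untreated, 4 were higher and 0 lower under both median-of-ratios and trimmed-mean scaling, 0 were lower at 2-fold, and 2 were lower among low cells and with the 0 h untreated library in its place. For 72 h untreated against 0 h, 0 were higher under both scalings, with 50 CPM and at 2-fold, and 1 with equal weight per cell, and 3 were lower under both scalings. Among low cells thinned as above, TUBA1A was 1.56-fold higher in that pair (1.08 to 2.29), and TUBA1B was 1.52-fold, TUBA1C 1.77-fold and TUBB3 1.51-fold lower. A minimum of 50 CPM tests fewer genes, and otherwise the cause was not tested. Shares of all genes are given above for library totals and median-of-ratios scaling only. Counts at the other settings have no such share beside them. With no cell filter or a mitochondrial limit of 10%, all 45 log2 ratios of the members stayed within their counting intervals, and under median-of-ratios scaling 36 of 45 left them. Counts in recovery against 72 h of inhibitor stayed within 1.5 times the reported one under all settings run, a limit that leaves room for change. Among thinned low cells TUBA1C was 1.47-fold higher (1.33 to 1.63), short of the threshold. Over all cells TUBB, at 1.98-fold, and TUBA1C, at 1.94-fold, fell short of 2-fold. No replicate could be left out, and no paired analysis was possible because each group has 1 library. Depth limits TUBB2B at 0 h untreated, with 54 UMIs, and all members in the 89 G2/M-high cells at 72 h of inhibitor.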
